A study of Mus musculus with 16 samples.

Results

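The genes described here encode the proteins of the cytosolic ribosome. They were taken from the lymph node gene table by name: a gene named Rps or Rpl with a number, or 1 of the irregular names Rpsa, Rplp0, Rplp1 and Rplp2. Kinases named Rps6k were left out. The rule found 81 of 9428 genes, 32 of the small subunit (Rps) and 49 of the large subunit (Rpl). Of these, 79 had a mean of at least 0.5 unique molecular identifiers (UMIs, the counted RNA molecules) per cell, as had 922 genes in all. The 2 under that limit were Rpl7l1 at 0.219 and Rps27l at 0.483 UMIs per cell, and members not far above it were Rpl31 at 3.93, Rpl36al at 4.55, Rps25 at 4.86 and Rpl22l1 at 4.996. In the GENCODE M21 annotation 84 coding genes match the rule, of which 3 (Rpl3l, Rpl10l and Rpl39l) were not analysed here.

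The cells were T cells selected by sorting as positive for both CD8, the mark of cytotoxic T cells, and CD44. Whether they had met antigen before was not tested, and sorting on CD44 alone does not show it. The mice were 16 weeks old and of the strain C57BL/6. All of the mice had melanoma-associated vitiligo, a loss of skin pigment that goes with the immune response to the tumor, and cells were taken 45 days after tumor surgery, from the draining lymph node and from lesional skin of the same animals. RNA was analysed for the lymph node (3266 cells of 1 library), and T cell receptor contigs for both tissues, while skin RNA was not analysed here. The labels do not state how many mice were used, and there was no group of healthy or tumor-free mice. With 1 library there was no replicate check and no test: every interval below is an exact 95% interval that covers counting error only, and quartiles show the spread over cells, which are not replicates.

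A ribosome joins a small subunit, which reads the messenger RNA, to a large subunit, which links amino acids. Each subunit is built in the nucleolus from ribosomal RNA and its own set of ribosomal proteins, and the messages for these proteins are among the most abundant in a lymphocyte. Many of them start with a run of pyrimidines (C and T), the TOP motif, through which growth signals set their translation. T cells are known to increase ribosome production after activation and to reduce it when they return to rest.

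Start windows are shown for the 3 members with a window in the RefSeq table among the 5 whose part of the family varied most over cells (Rps12, Rpl41 and Rps27), and for 3 of the 5 that varied least (Rps3, Rpl22 and Rpl10a). The 2 remaining of the most variable, Rplp1 and Rps20, had no window there. Each line gives 30 bases on the gene's own strand, 5′ to 3′, on the build GRCm38.p6, and capitals mark the longest unbroken run of C and T between 25 bases before and 50 bases after the annotated start. Rps12, Rpl41, Rps27 and Rps3 lie on the minus strand at chr10:23787182-23787211, chr10:128549119-128549148, chr3:90213632-90213661 and chr7:99483674-99483703. Rpl22 and Rpl10a lie on the plus strand at chr4:152324413-152324442 and chr17:28328450-28328479.
Rps12: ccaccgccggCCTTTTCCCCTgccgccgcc
Rpl41: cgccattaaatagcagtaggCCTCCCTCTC
Rps27: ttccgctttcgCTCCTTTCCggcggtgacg
Rps3: cgcggcgtcattgCTCCCgccctatatacc
Rpl22: aatatcagcgctgCTTCTggaatgttccag
Rpl10a: cgcgtggtggcgCCCCCCCagcggccgcaa
The run was 11, 10 and 9 bases long in the 3 variable members and 5, 5 and 7 in the 3 steady ones. It began at 8, 40 and -2 bases from the annotated start in Rps12, Rpl41 and Rps27. In Rps3, Rpl22 and Rpl10a it began at 19, -10 and -9, so the runs compared are mostly not at the start itself. The Rpl41 run ends where the stretch searched ends, so it may be cut short. For Rpl22 the GENCODE M21 gene begins at chr4:152325742, downstream of the window shown. For Rps12, Rpl41 and Rps3 it begins upstream of the window shown, at chr10:23787275, chr10:128549305 and chr7:99483738. Run length against variation over all 61 members is not given here. Of the other two of the steadiest, both under the filter, Rps27l had a run of 9, as long as that of Rps27, and Rpl7l1 a run of 4. Over the 61 members with a window, 46 (75.4%) held a run of at least 8, against 7295 of 27025 genes (27.0%). The word CCGGAAG, searched on both strands from 250 bases before to 25 after the start, was present in 37.7% of the members and in 8.52% of all genes. Its reverse strand, CTTCCGG, can overlap a pyrimidine run. The word TATAAA, searched in the same way, was in 9.84% of the members and in 13.6% of all genes. These are matches of letters around an annotated start and not mapped starts or binding sites. In each of the 6 cell comparisons below the 45 members at or above the filter with a run had a median close to that of the 14 without one, for example -0.25 against -0.25 on the log2 scale in cells with Itgae and -0.86 against -1.003 in cells of clones shared with skin.

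The 81 genes gave 6152107 of 14556622 UMIs, or 42.3% of all counted molecules. In single cells the share ran from 4.05% to 57.7%, with a median of 42.7% and quartiles of 37.1% and 46.2%. Shares under 25% were seen in 195 cells (5.97%). Of the 50 genes with most UMIs, 42 were members, and of the top 100, 71 were. A cell held a median of 1901 ribosomal protein UMIs out of a median total of 4423 (range 461 to 12576).

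The share went with the depth of the cell. Depth is the total of UMIs, ribosomal protein UMIs included, so depth and share are not independent measures. Cells were split into 5 equal groups by total UMIs (depth quintiles), and the median share was 32.9% in the shallowest quintile (461 to 2819 UMIs), then 41.1%, 43.9% and 44.8%, and 44.4% in the deepest quintile (5769 to 12576 UMIs). The mitochondrial share, a common sign of cell quality, had a median between 2.55% and 2.64% in all 5 quintiles, and no cell exceeded 4.99%. Barcodes with at least 2 TCR beta (TRB) sequences, a sign that 2 cells may share a droplet, numbered 315 and had a median share of 42.0%, against 42.8% in the other cells. The 302 cells with no receptor contig had a median of 38.6%, against 43.0% in those with one. The lymph node and skin receptor tables had 12 barcodes in common, and the 12 lymph node cells that carry them had a median share of 42.1%. Markers of other cell types were in the gene table only in part, while all 7 CD8 T cell markers were in it. It held 6 of 9 genes of the B cell list and 4 of 7 of the myeloid list. Of the CD4 T cell, NK and plasma cell lists it held 1 of 3 each, and of the gamma-delta and erythroid lists none. The NK list was Ncr1, Klrb1c and Eomes, and the plasma cell list Jchain, Xbp1 and Sdc1. Which gene of each was held is not given here, so its values below are not read as a sign of other cells. A gene that is absent from the gene table cannot be read as low, so gamma-delta and erythroid cells could not be checked.

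Cells were then classed by a UMI of each of 4 genes, by the absence of Ccl5, and by their receptor. Over cells of all depths, the share was lowest in cells whose clone was also found in skin. It was lower in cells with Itgae, Izumo1r or no Ccl5 than in the cells they were compared with. With Klra7 or Isg15 it was within 1 percentage point of the comparison cells, though not within each quintile of depth. A class set by 1 UMI misses expressing cells and can take in cells with free RNA, and the part of this was not tested.

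**Figure D1:**
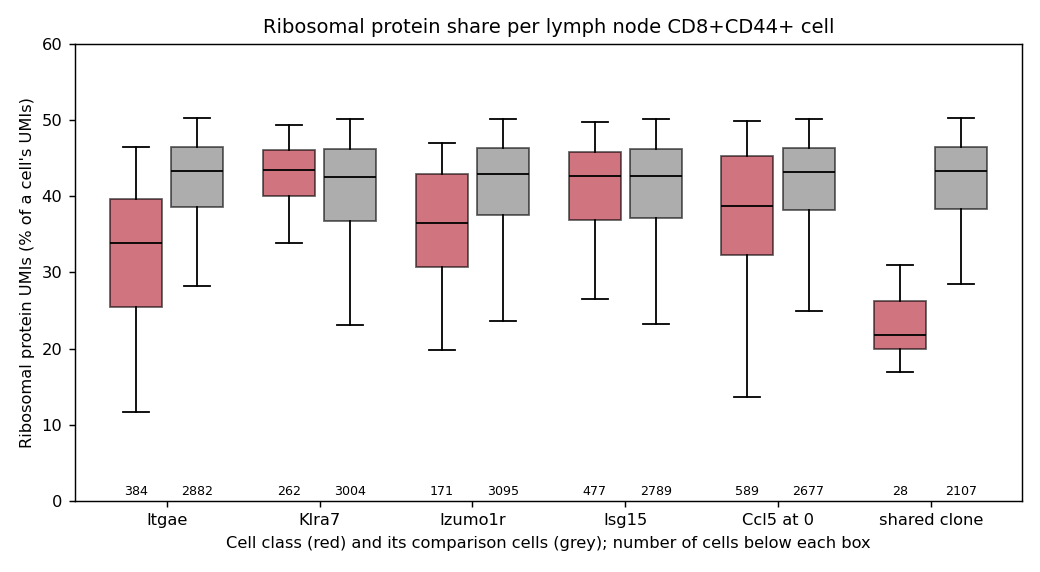
Share of a cell's UMIs from the 81 ribosomal protein genes (y axis, percent) for 6 cell classes (red) and the cells they were compared with (grey). Boxes show quartiles and the median over cells, whiskers the 5th and 95th percentiles, and the numbers at the foot count cells; the 28 shared-clone cells have a median of 21.7% against 43.3%.

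Itgae encodes the alpha chain of CD103, an integrin that binds E-cadherin and marks tissue-resident T cells. In the 384 cells with an Itgae UMI the ribosomal protein share was 35.9% (interval 35.8 to 35.9), against 43.1% (43.0 to 43.1) in the 2882 cells without, a log2 ratio of -0.26. Over single cells the median was 33.8% (quartiles 25.5% and 39.7%) against 43.3% (38.6% and 46.5%), so the middle ranges touched only slightly. Shares under 25% were found in 24.0% of the cells with Itgae and in 3.57% of those without. The cells with Itgae held a median of 1197 ribosomal protein UMIs against 1950.5, while their other UMIs had medians of 2385.5 and 2502. The lower share thus went with fewer ribosomal protein molecules per cell and a near-equal number of other molecules.

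The order followed the amount of Itgae. Cells with 0, 1, 2, 3 to 4 and 5 or more Itgae UMIs had median shares of 43.3%, 36.1%, 30.6%, 30.2% and 20.8%, in 2882, 224, 91, 52 and 17 cells. The pooled shares of these bins were 43.1%, 37.6%, 34.4%, 32.8% and 30.5%. Depth also differed, with a median of 3682.5 UMIs in cells with Itgae against 4471. That total includes the ribosomal protein UMIs, which were themselves fewer, so the quintiles are set in part by the family. Within each quintile of depth the pooled share was lower with Itgae, from 25.7% against 34.9% in the shallowest quintile to 39.7% against 44.1% in the deepest, and the gap was smallest in the deepest. Among cells of clones seen in the lymph node alone, the 196 with Itgae had a pooled share of 36.4%, against 43.3% in the 1911 without.

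**Figure D2:**
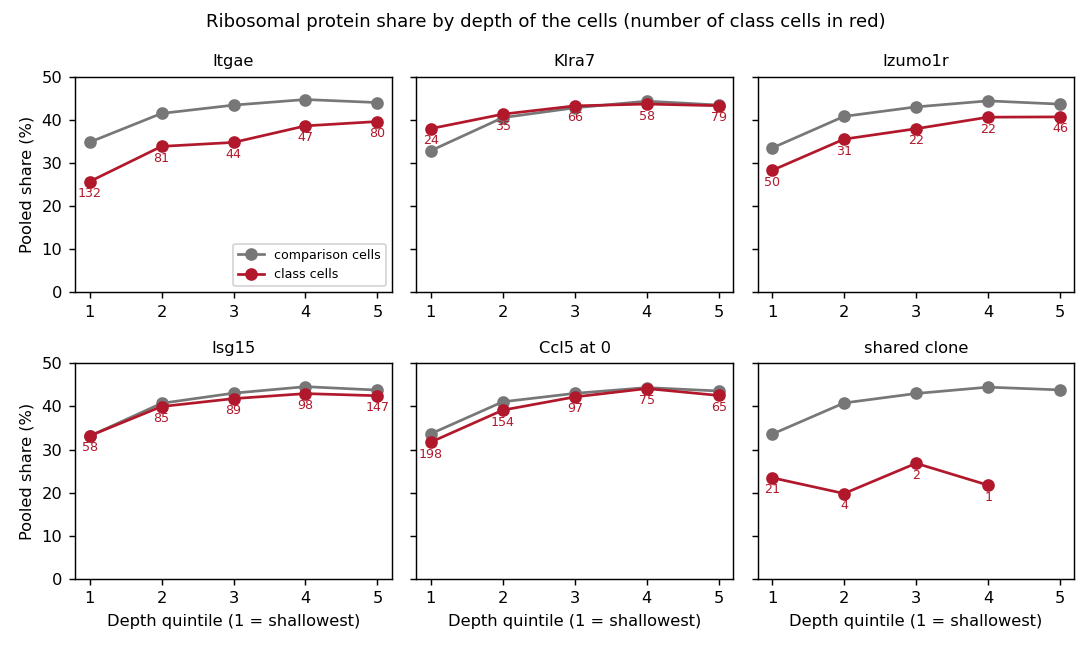
Pooled ribosomal protein share (y axis, percent) in depth quintiles of cells (x axis, 1 is the shallowest) for each class (red, with the number of cells) and its comparison cells (grey). With Itgae the red line is below the grey one in all 5 quintiles, from 25.7% against 34.9% to 39.7% against 44.1%.

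All 79 members at or above the filter were lower in cells with Itgae, as were 307 of all 922 genes. In UMIs per 1e6 UMIs of the same cells (CPM) their log2 ratios had a minimum of -0.39 and a median of -0.25, while the median of the 922 genes was 0.10. A log2 ratio of 0.32 in either direction was taken as the size limit for counting a gene. Below -0.32 were 10 members (12.7%), against 4.01% of all genes tested, and above 0.32 were 0, against 19% of all genes. Members make up a large part of all molecules, so a lower family raises the CPM of other genes. With scaling by the median ratio of genes, which moves all genes by 0.10, the members past the size limit numbered 56, all lower, and over all genes the split went from 175 higher and 37 lower to 100 higher and 109 lower. The count of members past the limit depended on the choice of cells: it was 2 when cells of more than 1 class were left out, 41 with at least 2 Itgae UMIs and 52 with cells thinned to 1500 UMIs. The counts over all genes under these choices of cells are not given here.

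Members of the small subunit had a median of -0.26 and those of the large subunit of -0.25. The lowest was Rps19, which is needed to mature the RNA of the small subunit and is mutated in Diamond-Blackfan anemia. Rps19 had 5004 CPM in cells with Itgae and 6545 in those without, or 20.8 and 29.4 UMIs per cell, a log2 ratio of -0.39 (-0.42 to -0.35). Rps20 was at -0.38, Rpl36a at -0.38 and Rps16 at -0.36. Rplp0, the base of the stalk that recruits elongation factors, was at -0.35, and the other stalk genes Rplp1, Rpl12 and Rplp2 were at -0.28, -0.27 and -0.25. Rpl5 and Rpl11, which carry the 5S RNA into the large subunit and bind Mdm2 when assembly fails, were at -0.30 and -0.22. At the tunnel through which the new protein leaves, 8 of 8 genes were lower, between -0.29 for Rpl39 and -0.17 for Rpl26.

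A few members were closer to equal. Rpl13a, which is known from the silencing of inflammatory messages after interferon gamma, was at -0.09 (-0.13 to -0.06), at 4253 against 4538 CPM. Rps25, which some viral messages need to start translation, was at -0.09 and Rpl36al at -0.11. Set against the sum of the family, 25 members had intervals above and 14 below an even part. The parts add up to the whole family, so a higher part of some members requires a lower part of others.

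The partners of the family were lower by a smaller amount. Fau encodes a small-subunit protein made as a fusion to a ubiquitin-like protein, and Rack1 a scaffold on the small subunit. Their log2 ratios were -0.09 and -0.23, neither past the size limit. Of 27 translation factors at or above the filter, 1 was past it and lower and 0 higher, with a median of -0.07. That gene was Eef1b2, an exchange factor of elongation, at -0.33, and at the other end Eif4g2 was at 0.20. Of 9 ribosome biogenesis genes 2 were past it, Npm1 at -0.38 and Fbl, the methyltransferase of ribosomal RNA, at -0.34. The 8 mitochondrial ribosomal protein genes at or above the filter had a median of 0.09, with 0 past the size limit in either direction. Over all 922 genes 4.01% were past it and lower and 19% higher.

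Other values moved with the class. The 3 effector and residency genes at or above the filter were higher with Itgae, S100a6 by a log2 ratio of 1.89, Cxcr6 by 1.69 and Lgals1 by 1.29. Of the 3 CD4 T cell markers the 1 in the gene table, Cd40lg, was at 35.0 CPM against 4.55, the 6 B cell markers summed to 307 against 222 CPM and the 4 myeloid markers to 111 against 94.3. The NK marker was at 45.7 against 90.4 CPM and the plasma cell marker at 33.2 against 20.1. The 7 CD8 T cell markers summed to 6252 against 4889 CPM. Their part in the share was not tested.

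**Figure D3:**
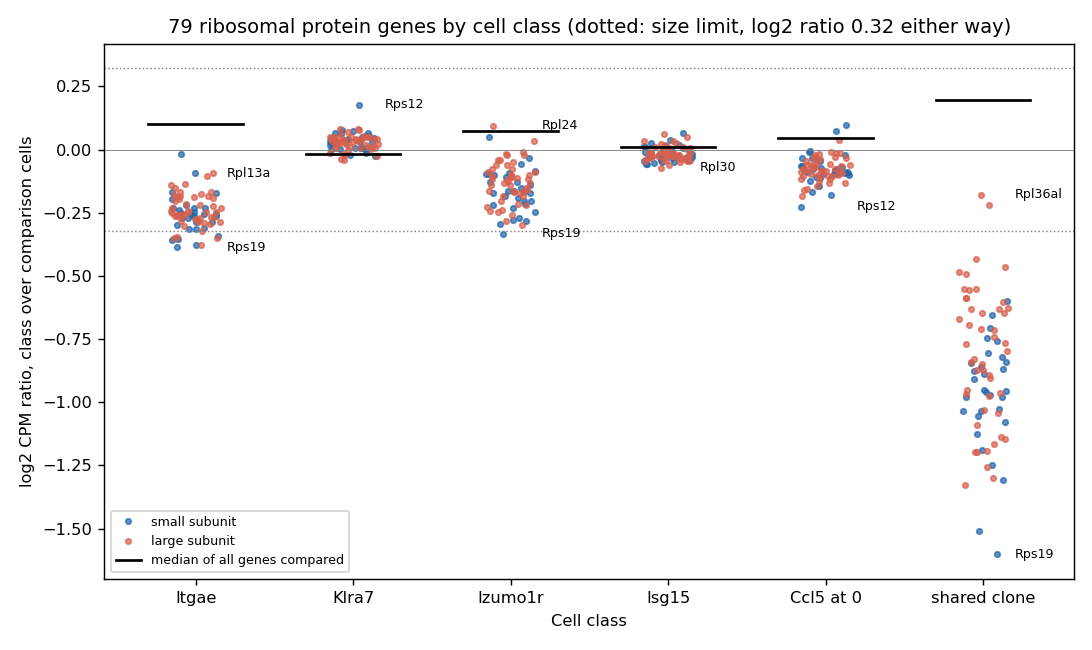
Log2 ratio of CPM between the cells of a class and the cells they were compared with (y axis) for the 79 ribosomal protein genes at or above the filter in 6 classes (x axis), with small-subunit genes in blue and large-subunit genes in red. Black lines mark the median of 922 genes and dotted lines the size limit of 0.32; the named genes are members that the text describes, and in shared-clone cells all 79 points lie below 0.

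Ribosomal protein genes were at their lowest in cells of clones that were also found in skin. These 28 cells belonged to 26 clones and were compared with 2107 cells of clones found in the lymph node alone. Their share was 23.0% (22.7 to 23.3) against 42.7% (42.7 to 42.8), a log2 ratio of -0.89. Single cells ran from 5.46% to 33.5%, with a median of 21.7% (quartiles 19.9% and 26.2%) against 43.3% (38.4% and 46.5%). Of the 28 cells, 28 lay under the lower quartile of the others, although cells as low as 5.38% occurred among the others too. They held a median of 571.5 ribosomal protein UMIs against 1966, and of 1700.5 other UMIs against 2543.

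These cells were shallow, with a median of 2281 UMIs against 4556, and 21 of 28 were in the shallowest quintile. In that quintile the pooled share was 23.5% against 33.6% in 277 other cells, and in the next it was 19.8% in 4 cells against 40.8% in 452. The 18 shared-clone cells with Itgae had a pooled share of 23.2% and the 10 without had 22.5%, so the low share held on both sides of that class. In the lymph node alone, 100 cells of clones with 2 or more cells had a share of 39.1% (38.9 to 39.3), against 42.8% in 2007 cells of single-cell clones, at median depths of 2592.5 and 4606 UMIs. Both clones with 2 cells in the set had unequal members: in one the shares were 22.4% and 32.3%, in the other 16.9% and 23.2%.

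Past the size limit and lower in shared-clone cells were 77 of 79 members, against 27.5% of all genes tested, and 0 were higher, against 43.1%. With scaling by the median ratio, which moved all genes by 0.20, the number was 79, and the split over all genes went from 397 higher and 254 lower to 286 higher and 316 lower. The members' median was -0.87, at -0.96 for the small and -0.78 for the large subunit, and the median of the 922 genes was 0.20. With 28 cells the intervals of single genes are wide.

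Rps19 was again the lowest, with 143 UMIs in the 28 cells, or 5.11 per cell against 29.3, and a log2 ratio of -1.60 (-1.85 to -1.37). Rps20 was at -1.51, Rplp0 at -1.33, Rps12 at -1.31 and Rpl36a at -1.30. The least lowered were Rpl36al at -0.18 (-0.57 to 0.18), Rpl13a at -0.22 (-0.40 to -0.04), Rpl27 at -0.43, Rpl34 at -0.47 and Rpl7 at -0.48. Rpl36al and Rpl13a were the 2 members not past the size limit. Cells with Itgae and shared-clone cells have 18 cells in common, so the likeness of the 2 orders is not an independent observation.

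Outside the family, Fau was at -0.19 and Rack1 at -0.72. Of 27 translation factors, 10 were past the size limit and lower and 4 higher, with a median of -0.16. The elongation factors Eef1g at -1.56 and Eef1b2 at -1.36 were the lowest, and Eif1 at 0.60 and Eif4g2 at 0.87 the highest. Of 8 mitochondrial ribosomal protein genes 3 were past the size limit in each direction. Over all 922 genes 27.5% were past it and lower and 43.1% higher, so these counts are not read as results about the 2 lists. The effector genes S100a6, Cxcr6 and Lgals1 were higher by log2 ratios of 3.86, 3.65 and 3.17. The CD8 T cell markers summed to 7658 against 5011 CPM, the 6 B cell markers to 356 against 225 CPM, with Ighd, H2-Ab1 and H2-Eb1 at 0, and the 4 myeloid markers to 207 against 91.8 CPM, with Tyrobp at 0. The CD4 T cell marker Cd40lg was at 104 against 5.32 CPM, the plasma cell marker at 119 against 18.7 CPM and the NK marker at 14.8 against 86.1 CPM. In the shared-clone cells the B cell, myeloid, CD4 T cell, plasma cell and NK values rest on 24, 14, 7, 8 and 1 UMIs, and their part in the share was not tested. The median mitochondrial share was 1.97% against 2.58%.

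Izumo1r encodes folate receptor 4, which is known from regulatory and anergic T cells. In 171 cells with Izumo1r the pooled share was 38.1% (38.0 to 38.2) against 42.5%, with medians of 36.5% (quartiles 30.6% and 42.9%) and 42.9%. Cells with 1, 2 and 3 or more Izumo1r UMIs had median shares of 37.7%, 36.1% and 34.9%. Within each quintile of depth the share was lower with Izumo1r, by a log2 ratio between -0.24 and -0.10. Of these cells 53 also had Itgae, and in the 66 cells in no other of the 5 gene classes the share was 40.9%, against 43.4% in the 1789 cells in none. The difference was thus smaller once overlapping classes were set aside.

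Past the size limit and lower with Izumo1r was 1 of 79 members (1.27%), against 5.42% of all genes, and 0 were higher, against 15%. That member was Rps19, at 5122 against 6448 CPM and a log2 ratio of -0.33 (-0.38 to -0.29). With scaling by the median ratio 8 members were past it, and over all genes the split went from 138 higher and 50 lower to 92 and 86. The count of members was 0 when cells of more than 1 class were left out, 8 in cells of 3000 to 6000 UMIs, 14 with at least 2 Izumo1r UMIs and 22 with cells thinned to 1500 UMIs. For these choices of cells the counts over all genes are not given here. The members' median was -0.14 beside 0.07 over all genes. Also among the lowest were Rpl12 at -0.30, Rps16 at -0.28 and Rpl36a at -0.28. Rpl24, the highest in this class, was at 0.09 (0.03 to 0.16), and Rpl7 was at 0.03. The 6 B cell markers summed to 361 against 224 CPM and the CD4 T cell marker stood at 22.8 against 7.05 CPM. The plasma cell marker was at 34.2 against 20.8 CPM and the NK marker at 69.6 against 86.4 CPM, and the part of these markers was not tested.

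Ccl5 encodes a chemokine that memory CD8 T cells store as message. The 589 cells with no Ccl5 UMI had a pooled share of 40.2% (40.1 to 40.2) against 42.6%, with medians of 38.7% (quartiles 32.3% and 45.4%) and 43.1%. Their median depth was 3546 UMIs against 4570, and a shallow cell more often lacks a UMI of any gene. Within quintiles of depth the log2 ratio ran from -0.09 in the shallowest to -0.0072 in the fourth. Along the amount of Ccl5 the pooled share had a maximum in the middle: it was 40.2% at 0 UMIs, 42.2% at 1 to 4, 43.3% at 5 to 9 and at 10 to 19, 42.7% at 20 to 29 and 41.5% at 30 or more.

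No member passed the size limit in cells without Ccl5 (0 of 79), against 2.06% of all genes lower and 5.75% higher. The members' median was -0.08 beside 0.05 over all genes, and 76 of 79 were below 0, against 348 of all 922 genes. Rps12 was the lowest at -0.23 (-0.26 to -0.20), and Rpl14 was at -0.18, Rps19 at -0.17 and Rpl13 at -0.16. Rps25 at 0.07 (0.01 to 0.14) and Rpl22l1 at 0.04 (-0.03 to 0.10) were above 0. Beside them the effector genes S100a6 and Lgals1 stood at -0.89 and -0.49, and the naive and central memory genes Dapl1 and Ccr7 at 1.10 and 0.50. These were the highest of the 9 naive and central memory genes at or above the filter, of which 5 were above 0 and 4 below. The lowest were Klf2 at -0.13 and Il7r at -0.11. The CD4 T cell marker was at 14.4 against 6.77 CPM, the 6 B cell markers summed to 296 against 221 CPM and the NK marker was at 57.3 against 90.3 CPM, and their part was not tested.

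Klra7 encodes an inhibitory receptor of the Ly49 family, seen on NK cells and on some memory CD8 T cells. The 262 cells with Klra7 had a pooled share of 43.1% (43.0 to 43.2) against 42.2%, with medians of 43.4% (quartiles 40.0% and 46.1%) and 42.6%. Shares under 25% were rarer, at 1.91% against 6.32% of cells. In the shallowest quintile the share was 38.0% in 24 cells against 32.9%, in the next 2 the log2 ratio was 0.03 and 0.02, and in the deepest 2 it was -0.02 and -0.0052. The higher share thus lay in the shallow cells.

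None of the 79 members was past the size limit with Klra7, against 0.976% of all genes higher and 2.28% lower. Their median was 0.03 beside -0.02, and 68 of 79 were above 0, against 399 of all 922 genes. Rps12 stood apart from the others at 0.18 (0.15 to 0.21), with 5963 against 5269 CPM, while the next members, Rpl4, Rpl3, Rpl15 and Rps18, were each at 0.08. Cells with Klra7 were also deeper, with a median of 4932 UMIs against 4380.5, and the part of Rps12 in the family rose with depth. The lowest was Rpl21 at -0.04. The NK marker was at 110.3 against 82.9 CPM and the CD4 T cell marker at 2.18 against 8.50 CPM, and their part was not tested.

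Isg15 is a ubiquitin-like protein induced by type I interferon. The 477 cells with Isg15 had a pooled share of 41.7% (41.7 to 41.8) against 42.4%, a log2 ratio of -0.02, while the medians were 42.7% and 42.6%, so the direction depended on the measure. Their depth was greater, with a median of 4850 UMIs against 4360. In the shallowest quintile the pooled share was 33.2% against 33.1%. It was lower with Isg15 in the others, at 40.0% against 40.7%, 41.8% against 43.1%, 43.0% against 44.6% and 42.5% against 43.8%. Past the size limit were 0 of 79 members, against 1.74% of all genes higher and 0.217% lower. Rpl30 was the lowest member at -0.07 and Rpl4 was at 0.06, and the members' median was -0.02 beside 0.01. Cells with 0, 1, 2 to 4 and 5 or more Isg15 UMIs had pooled shares of 42.4%, 41.9%, 41.2% and 42.0%. Bst2, a gene of the interferon response list, was at 0.98. The CD4 T cell marker was at 13.1 against 6.85 CPM and the B cell markers summed to 269 against 224 CPM, and their part was not tested.

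Members also differed in how steady a part of the family they formed. For each gene the variance of its counts around its family part times the cell's ribosomal protein UMIs was divided by the variance that counting alone gives, so that 1 means counting noise. The median over the 79 members was 1.251. Rps12, which is known from cell competition in flies, was highest at 2.55, with 0 to 126 UMIs in a cell and a median of 22. Rpl41, Rps27, Rplp1 and Rps20 followed at 1.85, 1.85, 1.82 and 1.76. At the other end Rpl7l1 and Rps27l, the 2 genes under the filter, were at 0.99 and 1.01, where few counts leave little room for more than noise. Rps3, which lines the messenger RNA entry and stood at 23.6 UMIs per cell, was at 1.07, Rpl22, which developing alpha-beta T cells need, was also at 1.07 and Rpl10a at 1.08. Rps12 and Rps3 were counted at nearly the same depth, 23.8 and 23.6 UMIs per cell. Rps12 kept rank 1 with cells thinned to 1500 UMIs and within cells of 3000 to 6000 UMIs.

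**Figure D4:**
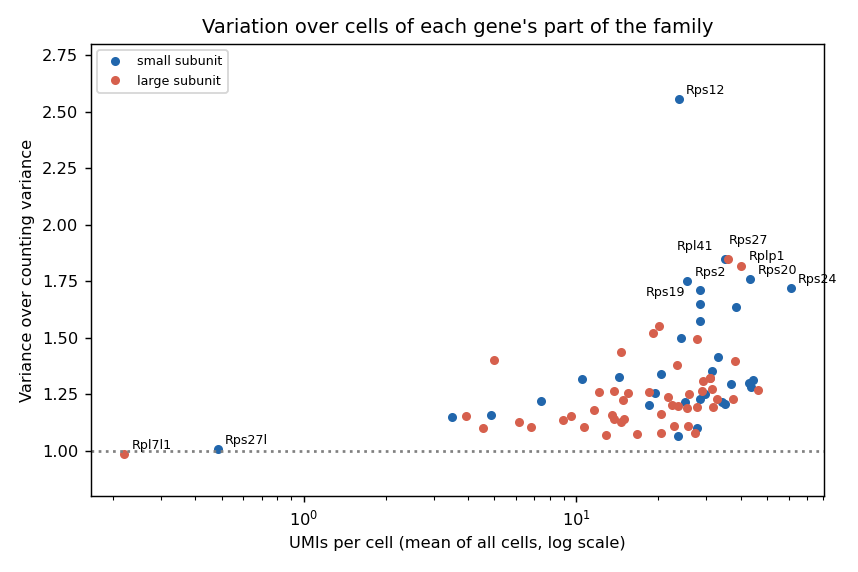
Variance of each member's counts over the variance of counting alone (y axis, 1 is counting noise, dotted) against its mean UMIs per cell (x axis, log scale), 1 point per gene for all 81 members in 3266 cells. Rps12 is at 2.55 and the next gene, Rpl41, at 1.85, while Rps3, at nearly the same depth as Rps12, is at 1.07.

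The part that Rps12 took of the family went with depth, with Ccl5 and with Klra7. It was 1.06% of ribosomal protein UMIs in the shallowest quintile of cells and 1.40% in the deepest, a log2 ratio of 0.40 (0.35 to 0.45), the highest of all members. Rps6, a target of the growth kinase S6K, followed at 0.32 and Rps19 at 0.31, and Rps3a1 at -0.22, Rpl19 at -0.20 and Rpl36al at -0.20 were at the other end. Over bins of Ccl5 the Rps12 part was 1.16%, 1.22%, 1.27%, 1.27%, 1.33% and 1.36%, from 0 to 30 or more UMIs. Since cells rich in Ccl5 were deeper, the same was read within quintiles. In the third quintile Rps12 was 1.10% (1.05 to 1.15) of the family without Ccl5 and 1.21% (1.19 to 1.23) with it, and in the deepest 1.37% (1.32 to 1.42) against 1.41% (1.39 to 1.43), where the intervals overlapped. They also overlapped in the second and the fourth quintile, and separated in the shallowest and the third. Between cells with and without Itgae the Rps12 part was 1.04% against 1.07% in the shallowest quintile and 1.41% against 1.40% in the deepest. For Klra7, whose cells were deeper than the others, the Rps12 part was not read within quintiles. Rps12 has 23 named pseudogenes in the annotation and Rps19 has 14, and the labels do not state how reads shared with such copies were counted.

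Rps19 behaved differently within depth. Its part of the family was 1.12% (1.04 to 1.21) with Itgae and 1.31% (1.27 to 1.35) without in the shallowest quintile, 1.27% against 1.43% in the next, 1.32% against 1.49% in the third and 1.36% against 1.57% in the fourth. In the deepest quintile the parts were 1.54% (1.49 to 1.59) and 1.59% (1.57 to 1.61), with overlapping intervals. Rps19 was thus a smaller part of the family with Itgae in 4 of 5 quintiles beyond counting error.

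Rpl36a and Rpl36al encode closely related forms of the same large-subunit protein. Rpl36a lies on the X chromosome at chrX:134585654-134588062 on the plus strand, and Rpl36al lies at chr12:69182731-69184083 on the minus strand (GENCODE M21, build mm10). Their coding sequences are 321 bases each and identical at 282 (87.9%). The first 60 coding bases, with the 11 that differ in capitals, show that reads in this stretch can be told apart:
Rpl36a: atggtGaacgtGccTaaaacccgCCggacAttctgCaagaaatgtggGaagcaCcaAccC
Rpl36al: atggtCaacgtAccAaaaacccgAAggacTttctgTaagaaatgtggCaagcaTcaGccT
Rpl36a was among the members most lowered with Itgae and in shared-clone cells, and Rpl36al among the least. Of the UMIs of the pair, Rpl36al gave 28.3% (27.1 to 29.5) in cells with Itgae and 24.6% (24.2 to 24.9) in those without. By Itgae UMIs the percentages were 24.6, 27.4, 28.9, 30.5 and 30.8 for 0, 1, 2, 3 to 4 and 5 or more, the last with an interval of 24.2 to 38.0. In shared-clone cells it was 41.5% (33.4 to 49.9), from 61 and 86 UMIs, against 24.6% (24.2 to 25.03).

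The balance of the pair also went with depth, from 28.6% Rpl36al in the shallowest quintile to 23.9% in the deepest. Within every quintile it was higher with Itgae, at 32.6% (28.9 to 36.6) against 27.9% (26.4 to 29.5) in the shallowest and 26.2% (24.4 to 28.0) against 23.6% (23.0 to 24.3) in the deepest. The intervals overlapped in the shallowest 3 quintiles and separated in the fourth and the deepest. With Izumo1r it was 27.9% (26.2 to 29.6) against 24.8%, without Ccl5 26.0% (25.1 to 27.0) against 24.7% (24.4 to 25.1), with Klra7 24.2% against 24.98% and with Isg15 25.5% against 24.8%. In the last 3 comparisons, without Ccl5, with Klra7 and with Isg15, the intervals of both sides overlapped.

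**Figure D5:**
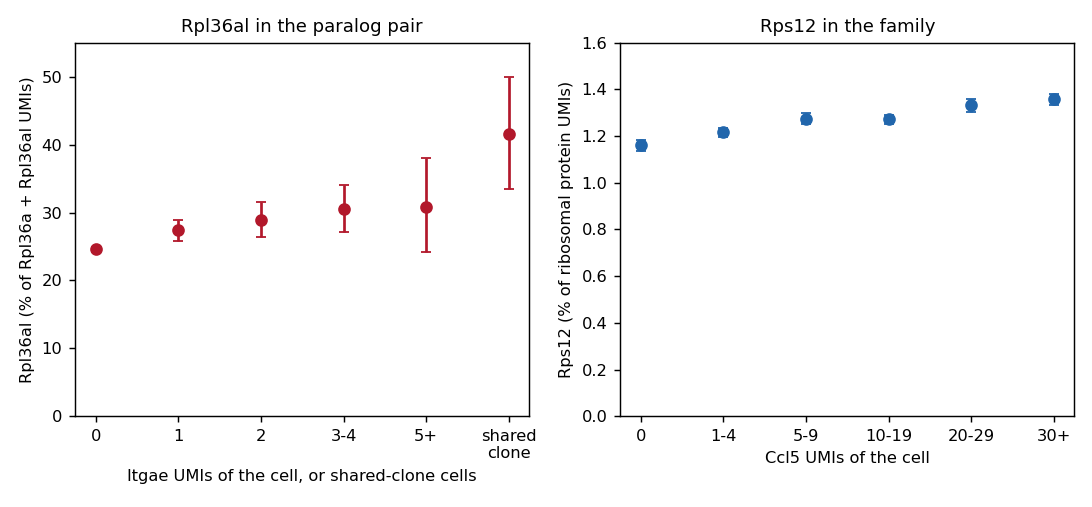
Left, Rpl36al as a percentage of the UMIs of Rpl36a and Rpl36al (y axis) by the Itgae UMIs of the cell and in shared-clone cells (x axis); right, Rps12 as a percentage of ribosomal protein UMIs (y axis) by the Ccl5 UMIs of the cell (x axis). Points are pooled over cells and bars are exact 95% intervals for counting error; Rpl36al goes from 24.6% at 0 Itgae UMIs to 30.8% at 5 or more and 41.5% in shared-clone cells, and Rps12 from 1.16% to 1.36%.

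The other pairs in the gene table were less alike. The coding sequences of Rpl22 and Rpl22l1 are 66.9% identical, those of Rps27 and Rps27l 60.1%, and those of Rpl7 and Rpl7l1 50.3%. In shared-clone cells Rpl22l1 was at -1.15 (-1.67 to -0.67) and Rpl22 at -0.89 (-1.18 to -0.62). Rps27l, with 9 UMIs, was at 0.31 and Rps27 at -0.82, and Rpl7l1, with 1 UMI, at -1.76 and Rpl7 at -0.48. A less lowered copy, as with Rpl36al, was thus not seen in every pair. Rps27 has a closer copy outside the naming rule, Rps27rt, whose coding sequence is identical over all 255 bases. It was counted separately at 1832 UMIs beside 114416 for Rps27, so the values of Rps27 carry the uncertainty of that division. Further rows named as copies, Rpl9-ps6, Rpl10-ps3 and Rpl36a-ps1, held 546, 249 and 72 UMIs. In the annotation Rpl36a has 3 named pseudogenes and Rpl36al has 0.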

How the data were processed

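The authors deposited raw UMI counts of lymph node cells by gene, with 4 lanes of the library in 1 table, and receptor contigs with their UMI counts for lymph node and skin. The tissue of each was taken from the table's own name. Bowtie, RSEM and mm10 are named, without roles, in the submitters' processing notes. The counting method and cell filters are not given in the sources used here. Lymph node cells were filtered at 40 um, per the labels' protocols.

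Member UMIs were divided by all UMIs of a cell (share) or of a class (CPM, per 1000000). Genes with a mean of at least 0.5 UMI per cell were compared, with a log2 ratio of 0.32 as the size limit. Clones had identical TRB and TRA CDR3 nucleotide sequences. Intervals are exact binomial at 95% and cover counting error only. Depth was a median of 4423 UMIs per cell. Doublets were treated as an alternative, by leaving out barcodes with 2 or more TRB sequences. Named genes are the 5 highest and 5 lowest members of a class or of the variation, the irregular names, paralogs, members next to the filter, and the 2 highest and lowest genes of each list; of these, those that add to the account are printed, and some genes are not reported here. Members and lists were chosen with earlier results of these data known.

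The count ratio was tested on simulated data of the Itgae comparison with 922 genes: true log2 ratios of -1 and -0.5 had median estimates of -0.99 and -0.50. The simulated sums held counting noise alone and no spread over cells. They therefore check the arithmetic only, and not how well the intervals describe these cells. Alternatives were thinning, a depth range, leaving out doublets, class thresholds, overlapping classes, scaling, no filter and no mitochondrial genes. Python 3.11.15, numpy 2.4.6, pandas 2.3.3, scipy 1.17.1, matplotlib 3.10.9 and biopython 1.88 were used. Start windows are from RefSeq (GRCm38.p6; 61 of 81 members matched) and gene positions and coding sequences from GENCODE M21 (81 of 81 matched).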

Additional observations from a re-analysis of the deposited data

How the results depend on the processing

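Values are log2 ratios of the pooled share, given in the order Itgae, Klra7, Izumo1r, Isg15, without Ccl5 and shared-clone, against -0.26, 0.031, -0.16, -0.022, -0.086 and -0.89 as reported. Thinned to 1500 UMIs per cell, which left out 176 cells, they were -0.39, 0.045, -0.25, -0.058, -0.040 and -0.82. In cells of 3000 to 6000 UMIs they were -0.27, 0.0077, -0.18, -0.047, -0.042 and -0.95. For cells of 1 gene class only they were -0.23, 0.0042, -0.087, -0.013, -0.048 and -0.99. Weighted by depth quintiles, an alternative chosen after seeing the data, they were -0.27, 0.041, -0.17, -0.034, -0.040 and -0.85. As ratios of medians over cells, Itgae gave -0.36, Izumo1r -0.23, cells without Ccl5 -0.16 and shared-clone cells -0.99, and Isg15 changed its sign to 0.0026. With at least 2 UMIs of the class gene, Itgae gave -0.35, Izumo1r -0.21 and Isg15 -0.030. With 0 or 1 Ccl5 UMI the value was -0.078, and with clones set by the TRB sequence alone it was -0.62 in 49 cells. Without barcodes of 2 or more TRB, Itgae gave -0.28 and Isg15 -0.018. The remaining alternatives moved the shares by less than counting error.

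Members past the size limit with Itgae, 10 as reported, numbered 52 after thinning, 41 with at least 2 Itgae UMIs, 2 in cells of 1 class only and 56 with median-ratio scaling. With Izumo1r, 1 as reported, they numbered 22 after thinning, 8 in cells of 3000 to 6000 UMIs, 14 with at least 2 UMIs, 0 in cells of 1 class only and 8 with median-ratio scaling. With Klra7 there was 1 without the filter, Rpl7l1 at 53 UMIs. In shared-clone cells the number was between 75 and 79. Of these alternatives, counts over all genes are given above for the scaling only. The median variation over cells was 1.251, 1.09 after thinning and 1.23 in cells of 3000 to 6000 UMIs. Of 422 values for named members, 75 moved by at least 0.10 on the log2 scale, a limit that does not take counting error into account. In shared-clone cells Rpl36al was at 0.12 after thinning and Rpl13a at 0.10 in the 6 cells of 3000 to 6000 UMIs. The cause of these shifts was not tested. No paired analysis was possible because the replicate numbers are lanes of 1 library, which the gene table pools, and no test was made.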
